A study of Mus musculus with 8 samples.

Results

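Expression of 9 genes of the complement system was described in mouse lung, from the 23469 genes of a table of RNA-Seq read counts. They were C1qa, C1qb and C1qc, which encode the chains of C1q, C2 and C4b of the classical and lectin pathways, the central component C3, Cfb of the alternative pathway, and C3ar1 and C5ar1, the receptors of the fragments C3a and C5a. Each was found by its Entrez identifier, and all 9 passed the filter on low counts in every comparison. C57BL/6 wild type mice and DDAH1-transgenic mice, which carry added dimethylarginine dimethylaminohydrolase 1, an enzyme that breaks down the nitric oxide synthase inhibitor asymmetric dimethylarginine, received house dust mite (HDM, Dermatophagoides pteronyssinus) extract or PBS into the trachea. The dose was 100 µg HDM in 50 µl PBS, or 50 µl PBS alone, 3 times a week for 3 weeks, and lungs were taken 24 h after the last dose. The promoter of the transgene is not given in the sources used here. In each of the 4 groups the RNA of 4 mice was pooled and the pool was sequenced as 2 libraries, so every SD (n = 2) and every p-value below measures the spread between libraries of a pool and not between mice. An exact permutation test of 2 libraries against 2 cannot go below p = 0.333, and the tests across all genes are therefore the ones given.

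Complement is a cascade of plasma proteins that tags particles for uptake, recruits leukocytes and can lyse cells. C1q binds antibody or a surface directly and starts the classical pathway, in which C4 and C2 form the enzyme that cleaves C3, and factor B forms the corresponding enzyme of the alternative pathway, which amplifies deposition of C3. The small fragments C3a and C5a act on receptors of myeloid and other cells, and both are known for their part in allergic airway inflammation. Much of the plasma pool is made in the liver, whereas C1q is made mainly by macrophages and related cells, and lung epithelium and fibroblasts also express C3.

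The libraries held 5694928 to 11929374 counts, the smallest being replicate 1 of HDM-treated transgenic mice. The ribosomal RNA gene Rn45S took 8.58% and 9.37% of them in HDM-treated transgenic, 21.4% and 21.8% in PBS-treated transgenic and 14.8% to 21.5% in wild type libraries, so that the HDM-treated transgenic libraries stood apart. With Rn45S and haemoglobin left out of the library sizes, the calls among the 9 genes were the same in every comparison. Any other part of this in the results was not tested. Lung markers were present in all 8 libraries, with summed levels of 16550 to 67170 CPM (counts relative to the library total, scaled with trimmed mean of M values factors over the 8 libraries) over the 6 genes, led by Scgb1a1 and Sftpc. Counts of Ddah1 were 475 and 420 in PBS-treated wild type, 771 and 509 in PBS-treated transgenic, 482 and 445 in HDM-treated wild type and 233 and 431 in HDM-treated transgenic mice. Ddah1 did not differ between genotypes past the threshold under PBS (log2 fold change 0.66, adjusted p = 0.358) or HDM (−0.32, adjusted p = 0.637), so its counts do not bear out the label of the HDM-treated transgenic libraries, and genotype below is that of the libraries as labelled. Whether the counts hold reads of the transgene was not tested. Xist, expressed from the inactive X chromosome, had 113 to 197 counts in the PBS libraries and 20303 to 31372 in the HDM libraries, and the Y-linked Ddx3y had 621 to 719 and 2 to 3. HDM treatment and the sex of the pooled mice therefore cannot be told apart in any comparison of HDM with PBS. The same holds for the interaction of genotype and treatment, which may equally be an interaction of genotype and sex.

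In wild type mice, 7 of the 9 genes were higher and 1 was lower with HDM than with PBS, against 6.74% of all 15123 genes tested (4.44% higher and 2.3% lower) at an adjusted p under 0.05. In transgenic mice, 5 of the 9 were higher and none lower with HDM, against 13.8% of 15086 genes (8.43% higher and 5.35% lower). Under PBS no gene of the 9 differed between genotypes, against 0.657% of 14926 genes, and none had an unadjusted p under 0.05. Under HDM, Cfb was higher and C3 lower in transgenic than in wild type libraries, against 2.44% of 15191 genes (1.84% higher and 0.599% lower). Cfb alone passed the interaction test of whether the genotype difference was unequal between HDM and PBS libraries, against 1.76% of 15868 genes (1.05% higher and 0.706% lower). The p-values came from the edgeR quasi-likelihood test, adjusted over all genes tested. These shares of all genes are also the ones to set beside the edgeR counts of called genes in the marker lists below. DESeq2 also called none of the 9 between genotypes under PBS, against 223 of 14926 genes, and under HDM it called 922 of 15191 genes. Between genotypes, 1489 of 14926 genes under PBS and 2468 of 15191 under HDM had an unadjusted p under 0.05 in edgeR.

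**Figure D1:**
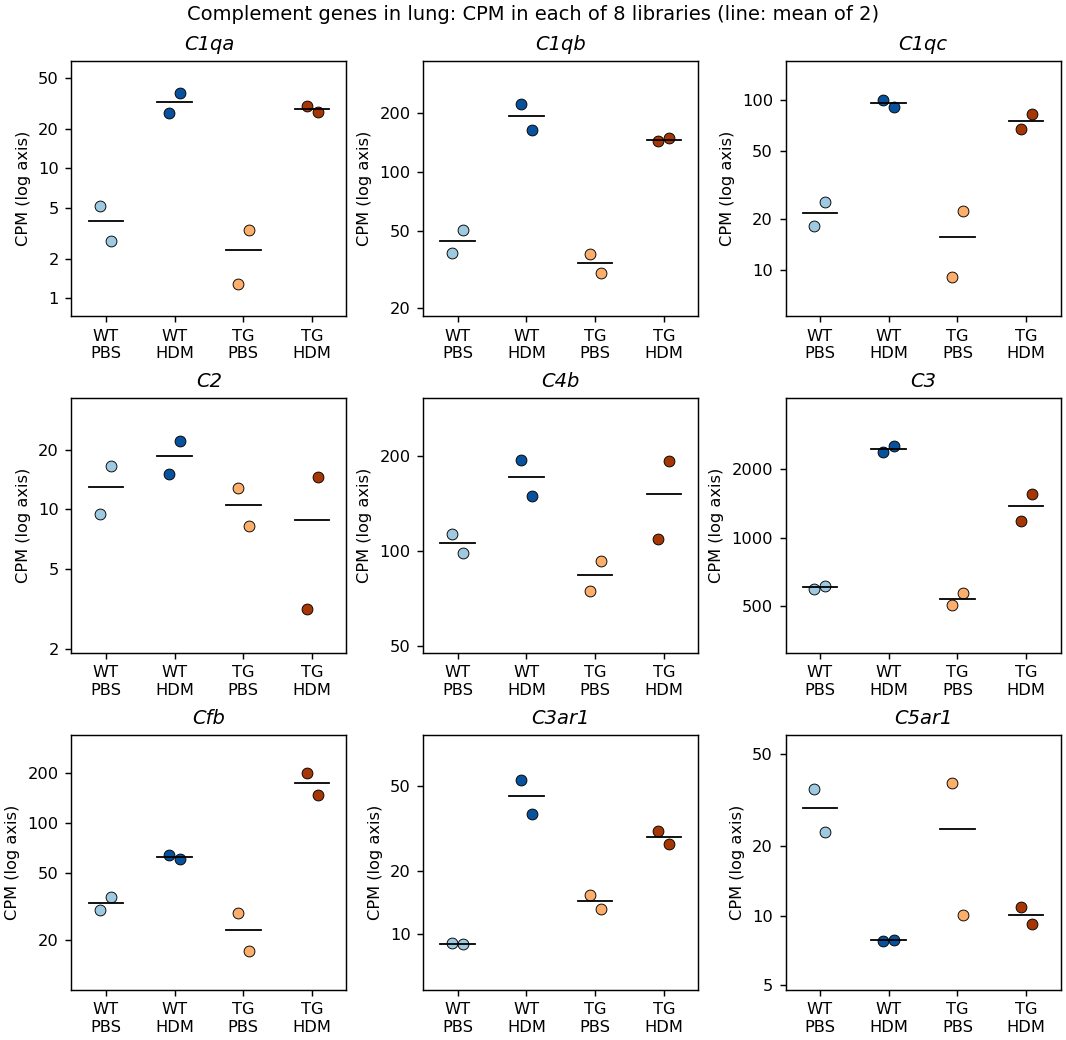
CPM (log axis, scaled per gene) of the 9 complement genes in each of 8 libraries, with the wild type (WT) and DDAH1-transgenic (TG) groups under PBS or HDM along the horizontal axis, 1 point per library and a line at the mean of 2. The C1q genes and C3 stood higher in all 4 HDM libraries than in all 4 PBS libraries, and Cfb was highest in both HDM-treated TG libraries (148 and 200.2 CPM).

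**Figure D2:**
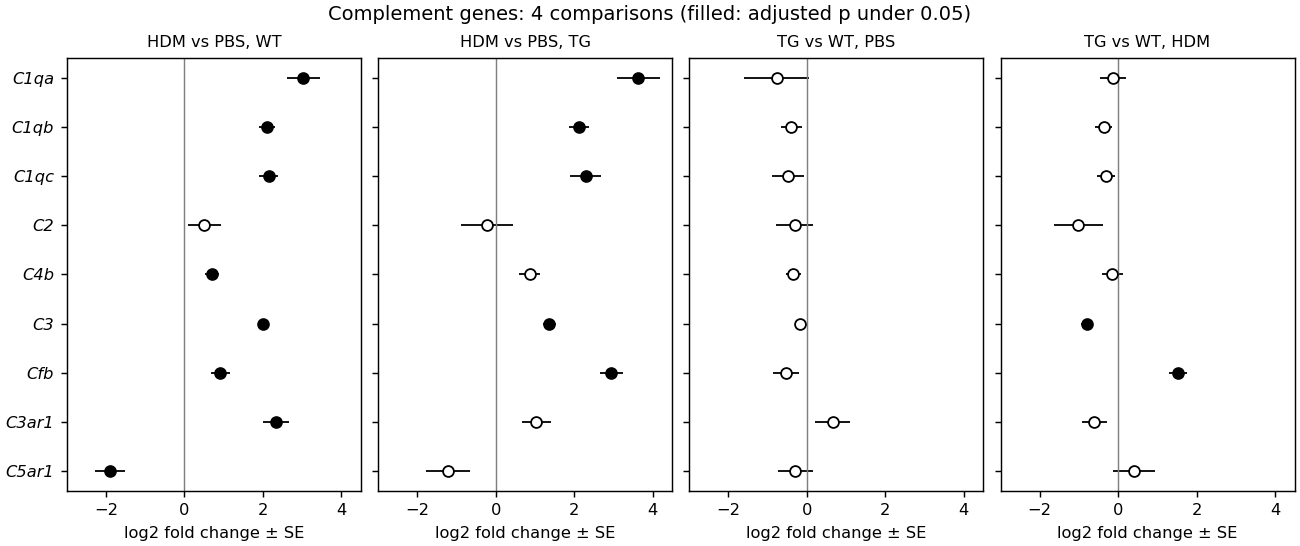
Fitted log2 fold change ± SE (horizontal axis) of the 9 genes in 4 comparisons, with filled points at an adjusted p under 0.05. C5ar1 lies below 0 where most other genes lie above it with HDM, and Cfb and C3 lie on opposite sides of 0 between genotypes under HDM.

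The median log2 fold change of the 9 genes with HDM was 2.01 in wild type mice, where the median of all genes tested was 0.02, and 1.37 in transgenic mice, where it was 0.03. Between genotypes it was −0.35 under PBS, with 0.00079 over all genes, and −0.31 under HDM, with 0.01 over all genes. The HDM comparisons and the genotype comparisons share libraries and are set side by side only. The libraries of a pair of groups did not overlap for 8 of 9 genes with HDM in wild type mice and for 7 of 9 in transgenic mice, but 49.8% and 56.8% of all genes tested did the same. Between genotypes, 5 genes did not overlap under PBS and 7 under HDM, with 40.3% and 48.2% of all genes. In whole lung, a change in the number of cells of a type and in the RNA of each cell cannot be told apart.

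C1qa, C1qb and C1qc are neighbours on chromosome 4 (GRCm38 136895916 to 136898844, 136880126 to 136886200 and 136889801 to 136892936, minus strand), and their protein chains assemble together. All 3 rose with HDM in both genotypes, and their changes were not tested against each other. The RefSeq sequences upstream of a transcript start of C1qb (GRCm38.p6, chr4:136886201-136886450) and C1qc (chr4:136892915-136893164), read on the minus strand from 250 bases before the start, are shown because both genes rose with HDM in each genotype. The transcript start used for C1qc lies inside the gene as given above, so 22 bases of its window are within the gene. Capitals mark matches to the core GAGGAA of the myeloid factor PU.1, on either strand, and in C1qc also a match to an NF-kB motif nearest the start.
C1qb: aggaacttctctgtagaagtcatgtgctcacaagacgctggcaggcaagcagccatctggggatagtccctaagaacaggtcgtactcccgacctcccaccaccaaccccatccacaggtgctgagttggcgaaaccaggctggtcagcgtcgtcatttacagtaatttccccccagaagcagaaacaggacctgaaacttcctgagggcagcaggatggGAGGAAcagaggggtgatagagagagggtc
C1qc: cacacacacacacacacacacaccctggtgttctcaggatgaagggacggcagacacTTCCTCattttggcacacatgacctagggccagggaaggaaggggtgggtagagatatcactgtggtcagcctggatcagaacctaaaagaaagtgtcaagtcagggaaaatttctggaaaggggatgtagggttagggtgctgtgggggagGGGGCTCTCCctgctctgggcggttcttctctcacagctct
The PU.1 match lay 30 to 25 bases before the start of C1qb and, on the opposite strand, 193 to 188 bases before that of C1qc, whose NF-kB match lay 41 to 32 bases before it. Among 32851 promoter windows of the same length, 23.3% held GAGGAA and 7.25% the NF-kB motif. The MAF motif TGCTGAC, the GAS motif TTCNNNGAA, the core of the interferon-stimulated response element and the C/EBP motif TTGCNNAA were also searched on both strands, with no match in either window and shares of 3.81%, 7.02%, 2.98% and 9.56% over all windows. A match is a description of these letters only.

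The level of C1qa was 5.13 and 2.78 CPM in PBS-treated wild type, 26.9 and 37.7 in HDM-treated wild type, 1.3 and 3.38 in PBS-treated transgenic and 30.1 and 27.1 in HDM-treated transgenic libraries. All 4 HDM libraries lay above all 4 PBS libraries, in which the gene had only 13 to 51 counts. The ratio of means was 8.17 in wild type (log2 fold change 3.04 ± 0.43 SE, adjusted p = 0.000535) and 12.2 in transgenic mice (3.63 ± 0.55, adjusted p = 0.00136).

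The level of C1qb was 38.4 and 50.5 CPM in PBS-treated wild type, 222 and 164 in HDM-treated wild type, 37.7 and 30.2 in PBS-treated transgenic and 143 and 149 in HDM-treated transgenic libraries. HDM and PBS libraries were apart in each genotype, and with either treatment both transgenic libraries lay below both wild type libraries. C1qb was 4.35-fold higher in HDM than in PBS libraries in wild type (2.12 ± 0.20, adjusted p = 1.3e-05) and 4.29-fold higher in transgenic mice (2.13 ± 0.24, adjusted p = 0.000197). The genotype difference was −0.40 ± 0.27 under PBS (adjusted p = 0.688) and −0.37 ± 0.21 under HDM (adjusted p = 0.428) on the log2 scale.

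The level of C1qc was 18.0 and 25 CPM in PBS-treated wild type, 101 and 91.2 in HDM-treated wild type, 8.99 and 22.1 in PBS-treated transgenic and 67.7 and 82.7 in HDM-treated transgenic libraries. The PBS-treated transgenic libraries were far apart, and 1 of them lay within the range of wild type. C1qc was 4.46-fold higher in HDM than in PBS libraries in wild type (2.15 ± 0.24, adjusted p = 5.3e-05) and 4.84-fold higher in transgenic mice (2.30 ± 0.40, adjusted p = 0.00292). The call in transgenic mice was lost without PBS replicate 1, the lower library (1.78, adjusted p = 0.0621).

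The proportion of C1qc to C1qb was similar in most libraries, and that of C1qa varied. C1qc had 45.2 to 55.6 counts per 100 counts of C1qb in 6 libraries and 23.8 and 73.1 in the PBS-treated transgenic libraries, and C1qa had 3.44 to 23.0 counts per 100 over all libraries. Neither the genotype comparisons nor the interaction passed the threshold for any of the 3 with edgeR. The marker lists of macrophages moved unevenly beside them. Of 7 general macrophage markers, 2 rose and 1 (Lyz2, a lysozyme) fell with HDM in wild type mice, and 5 rose in transgenic mice. Their summed level was 11630 to 12770 and 9412 to 9641 CPM in wild type under PBS and HDM, and 11890 to 13460 and 10170 to 14300 CPM in transgenic mice. C1q counts per 100 counts of this list were 0.482 and 0.673 in PBS-treated wild type, 3.72 and 3.04 in HDM-treated wild type, 0.404 and 0.414 in PBS-treated transgenic and 2.37 and 1.81 in HDM-treated transgenic libraries, and thus rose with HDM in both genotypes. Lyz2, which is also made by alveolar epithelium, gave most of the summed level of the list (group means of 8712 to 12312 CPM).

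Against Adgre1 alone, which encodes the macrophage marker F4/80, the pattern was different. C1q counts per 100 counts of Adgre1 were 249 and 348 in PBS-treated wild type, 1597 and 1027 in HDM-treated wild type, 359 and 462 in PBS-treated transgenic and 471 and 507 in HDM-treated transgenic libraries. This ratio was highest by far in HDM-treated wild type libraries, but it was taken to 1 gene of the 7, picked after its values were seen. Cd68 of the same list rose with HDM in wild type (1.69 ± 0.25) and in transgenic mice (1.44 ± 0.29). Its interaction did not pass (−0.26, adjusted p = 0.814), and with edgeR 2 of the 7 did (Adgre1 and Ctsd). Counts of Adgre1 were 245 and 284 in HDM-treated and 246 and 275 in PBS-treated wild type libraries, but 341 and 659 in HDM-treated and 134 and 114 in PBS-treated transgenic libraries, and Adgre1 passed the interaction test. The 10 alveolar macrophage markers, led by Cd9 and Mrc1, summed to 446 to 464 and 695 to 788 CPM in wild type under PBS and HDM, with 2 higher, and to 516 to 521 and 767 to 1264 CPM in transgenic mice, with 3 higher. Of 12 interstitial macrophage and monocyte markers, 3 rose and 1 fell (Lyve1) in wild type, and 6 rose and 1 fell (Lyve1) in transgenic mice, with summed levels of 680 to 700 and 716 to 766 CPM, and 638 to 704 and 661 to 882 CPM. The part of macrophage numbers in the C1q result was not tested.

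C4b and C2 encode the proteins from which the C3-cleaving enzyme of the classical and lectin pathways is built. Both lie in the major histocompatibility complex region of chromosome 17 (GRCm38 34728139 to 34743902 and 34862602 to 34882100). C4b rose modestly with HDM in wild type mice, and C2 did not pass the threshold in any comparison. C4b was at 113 and 98.2 CPM in PBS-treated wild type, 194 and 150 in HDM-treated wild type, 74.7 and 92.6 in PBS-treated transgenic and 109 and 193 in HDM-treated transgenic libraries. HDM libraries lay above PBS libraries within each genotype, and the HDM-treated transgenic libraries spanned the range from the PBS-treated to the highest wild type library. The ratio of means with HDM was 1.63 in wild type (0.70 ± 0.17, adjusted p = 0.0271) and 1.8 in transgenic mice (0.87 ± 0.27, adjusted p = 0.0530). The wild type call was lost without PBS replicate 2 (adjusted p = 0.195), without HDM replicate 1 (adjusted p = 0.107) and with all 8 libraries in the fit (adjusted p = 0.121). In transgenic mice the call was made under 8 of 14 alternatives, among them DESeq2. C4b shares 35.2% of its 50-base stretches with its near copy C4a, which had 33.7 to 48.3 counts per 100 counts of C4b, so counts may be split between them. With both summed, the change in transgenic mice passed (adjusted p = 0.0381).

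C2 was at 9.45 and 16.5 CPM in PBS-treated wild type, 15.0 and 22.0 in HDM-treated wild type, 12.8 and 8.25 in PBS-treated transgenic and 3.15 and 14.5 in HDM-treated transgenic libraries. HDM and PBS libraries overlapped within each genotype, and so did the genotypes under PBS, while both HDM-treated transgenic libraries lay below both HDM-treated wild type libraries. The log2 difference with HDM was 0.51 ± 0.42 in wild type (adjusted p = 0.560) and −0.22 ± 0.67 in transgenic mice (adjusted p = 0.873). The lowest value came from the smallest library, with 21 counts, and without HDM-treated transgenic replicate 2 the genotype difference under HDM was −2.50 (adjusted p = 0.00931) in place of −1.01 (adjusted p = 0.451).

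The products of C3 and Cfb meet in the amplification step, in which factor B bound to deposited C3b forms the enzyme that cleaves more C3. Both rose with HDM in both genotypes. The change of Cfb was larger in transgenic than in wild type libraries by the interaction test, and the smaller fold of C3 in transgenic libraries did not pass that test. C3 (chromosome 17, 57203967 to 57228136) gave 66.6% to 81.6% of the summed CPM of the 9 genes. Its upstream sequence (GRCm38.p6, chr17:57228137-57228386, minus strand, RefSeq) is shown because it was the most abundant of the 9, with the match to TTGCNNAA, a C/EBP motif, in capitals.
C3: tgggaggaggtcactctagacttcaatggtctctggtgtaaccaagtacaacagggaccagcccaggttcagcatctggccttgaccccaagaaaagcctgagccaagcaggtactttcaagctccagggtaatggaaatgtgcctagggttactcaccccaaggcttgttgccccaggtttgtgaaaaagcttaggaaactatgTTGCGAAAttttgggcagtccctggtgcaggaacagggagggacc
The match lay 45 to 38 bases before the start, and none of the other 5 motifs matched in this window. The RefSeq windows of C3ar1 and C5ar1 held none of the 6 motifs, 202 of the 250 bases of the C5ar1 window lying within the gene as given below, and C1qa, C2, C4b and Cfb are named only.

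The level of C3 was 596 and 616 CPM in PBS-treated wild type, 2364 and 2525 in HDM-treated wild type, 508 and 570 in PBS-treated transgenic and 1188 and 1560 in HDM-treated transgenic libraries. The groups did not overlap in any of the 4 comparisons. C3 was 4.03-fold higher in HDM than in PBS libraries in wild type (2.01 ± 0.09, adjusted p = 1.2e-08) and 2.55-fold higher in transgenic mice (1.37 ± 0.17, adjusted p = 0.00042). Under HDM the mean of transgenic libraries was 0.562 times that of wild type libraries (−0.79 ± 0.16, adjusted p = 0.0228), and under PBS 0.889 times (−0.18 ± 0.11, adjusted p = 0.642). The difference between these differences was −0.66 ± 0.19 (adjusted p = 0.0936), which did not pass the threshold, though it did with DESeq2 (adjusted p = 0.0418), without the filter on low counts (adjusted p = 0.0198), with the replicate number as a block (adjusted p = 0.0329) and without HDM-treated transgenic replicate 2 (adjusted p = 0.00239).

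Cfb, which lies beside C2 on chromosome 17 (34856374 to 34862514), was at 30.2 and 35.9 CPM in PBS-treated wild type, 64.0 and 60.5 in HDM-treated wild type, 28.8 and 17.0 in PBS-treated transgenic and 200.2 and 148 in HDM-treated transgenic libraries. Both HDM-treated transgenic libraries were more than double either HDM-treated wild type library, while the PBS-treated transgenic libraries were the lowest of all. Cfb was 1.89-fold higher in HDM than in PBS libraries in wild type (0.91 ± 0.24, adjusted p = 0.0335) and 7.61-fold higher in transgenic mice (2.95 ± 0.30, adjusted p = 9.1e-05). Transgenic libraries were 2.80-fold higher under HDM (1.52 ± 0.23, adjusted p = 0.0058) and 0.694 times as high under PBS (−0.54 ± 0.32, adjusted p = 0.635). The interaction was 2.01 ± 0.37 on the log2 scale (adjusted p = 0.00588).

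The interaction of Cfb passed the threshold under all 16 alternatives, at 1.69 to 2.45. The wild type change with HDM was lost with all 8 libraries in the fit (adjusted p = 0.0538), without PBS replicate 1 (adjusted p = 0.216) and without PBS replicate 2 (adjusted p = 0.0851). The genotype differences under HDM were lost without HDM-treated wild type replicate 1 (Cfb adjusted p = 0.273, C3 adjusted p = 0.324) or replicate 2 (Cfb adjusted p = 0.194, C3 adjusted p = 0.318), where only 6 and 20 genes in all were called. Fold changes between genotypes under HDM also moved with transcript length across 14455 genes (Spearman rho −0.281), as did those with HDM in transgenic mice (−0.331) and the interaction (−0.241), genes not being independent replicates. With an offset for length C3 was at −0.60 (adjusted p = 0.127) and Cfb was still called. Of the 50-base stretches of Cfb and C2, 81.8% and 58.0% also occur in the transcript model Gm20547, which spans both genes and has no entry of its own in the counts, and how reads in these stretches were assigned is not given in the sources used here.

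Within a library, Cfb had 5.06 and 5.82 counts per 100 counts of C3 in PBS-treated wild type, 2.71 and 2.40 in HDM-treated wild type, 5.66 and 2.99 in PBS-treated transgenic and 16.9 and 9.5 in HDM-treated transgenic libraries. This ratio does not depend on scaling between libraries, and it was lowest in HDM-treated wild type and highest in HDM-treated transgenic libraries, with no overlap between any other group and these. It does not remove the trend with transcript length, the transcripts of Cfb and C3 having 2737 and 5136 bases. The ratio of its neighbour C2 to Cfb was 31.3 and 46.0 counts per 100 in PBS-treated wild type, 23.5 and 36.4 in HDM-treated wild type, 44.4 and 48.5 in PBS-treated transgenic and only 1.57 and 9.78 in HDM-treated transgenic libraries.

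**Figure D3:**
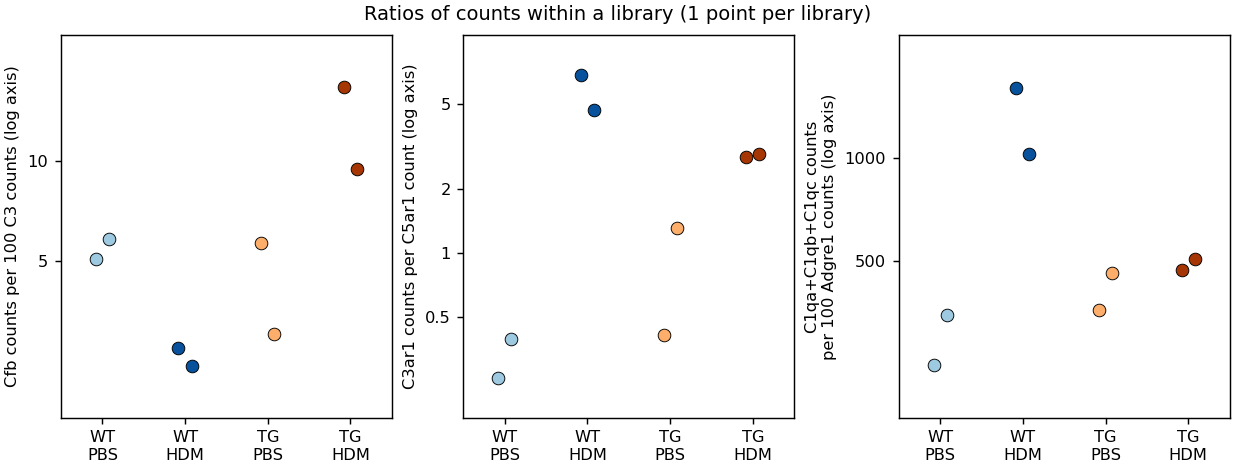
Ratios of counts within each library (log axes, 1 point per library): Cfb per 100 C3, C3ar1 per C5ar1, and the sum of C1qa, C1qb and C1qc per 100 Adgre1, in the 4 groups. HDM-treated transgenic libraries had the highest Cfb to C3 ratio (9.5 and 16.9), and HDM-treated wild type libraries the highest ratios in the other plots. Adgre1 is 1 of 7 general macrophage markers and was chosen after its values were seen.

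Interferons and NF-kB are known inducers of C3 and Cfb in other tissues, and lists of their target genes were counted. Of 12 interferon response genes, among them Cxcl9, 9 rose with HDM in wild type and 8 in transgenic mice. Their summed level was 373 and 372 CPM under PBS and 885 and 850 CPM under HDM in wild type, and 269 and 269 CPM and then 905 and 760 CPM in transgenic libraries. Of 12 acute phase and NF-kB target genes, led by Lcn2 and Icam1, 2 rose in wild type and 5 in transgenic mice. Their sums were 672 and 677 CPM under PBS and 1591 and 1412 CPM under HDM in wild type, and 411 and 371 CPM and then 1145 and 1556 CPM in transgenic libraries. Between genotypes under HDM neither list had a gene past the threshold with edgeR. There 2 and 3 genes had an unadjusted p under 0.05, against 2468 of all 15191 genes. DESeq2 called 1 of each list (Cxcl9 and Saa3), against 922 of 15191. Under PBS, 3 acute phase and NF-kB targets (Il1b, Lcn2 and Saa3) were lower in transgenic libraries. The interaction passed with edgeR for 1 of 12 interferon response genes (Cxcl9). It also passed for 3 of 11 acute phase and NF-kB targets tested (Il1b, Saa1 and Saa3). All of these were positive, against 1.05% of all genes. Among other lists, it passed with a positive sign for 3 of 10 neutrophil, 2 of 7 general macrophage and 3 of 5 club cell markers. For 2 of 8 alveolar type 2 markers it passed with a negative sign. Called or not, 9 of 12 interferon response genes and 9 of 11 acute phase and NF-kB targets had a positive interaction. So had 10 of 10 neutrophil, 5 of 7 general macrophage, 4 of 5 club cell and 2 of 8 alveolar type 2 markers. The median interaction of all genes was 7.2e-05. The part of interferon and NF-kB signals in the levels of C3 and Cfb was not tested. Of 7 hepatocyte markers, Apoa1, Cyp3a11, Fgb and Ttr had at most 3 counts in every library, and all 7 summed to 8.44 to 31.4 CPM.

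The receptors moved in opposite directions in wild type mice. C3ar1, the receptor of C3a (chromosome 6, 122847140 to 122856157), was at 9.05 and 8.98 CPM in PBS-treated wild type, 53.5 and 36.9 in HDM-treated wild type, 15.4 and 13.2 in PBS-treated transgenic and 30.9 and 26.8 in HDM-treated transgenic libraries. The groups did not overlap in any comparison, and both transgenic groups lay between the wild type groups. C3ar1 was 5.01-fold higher in HDM than in PBS libraries in wild type (2.32 ± 0.33, adjusted p = 0.000522), and the means differed 2.02-fold in transgenic mice (1.03 ± 0.37, adjusted p = 0.0889). The transgenic change passed with all 8 libraries in the fit (adjusted p = 0.0473) and with a length offset and replicate block together (adjusted p = 0.0418). The interaction was −1.32 ± 0.48 (adjusted p = 0.196).

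C5ar1, the receptor of C5a (chromosome 7, 16246743 to 16259540), was at 35.1 and 22.9 CPM in PBS-treated wild type, 7.78 and 7.84 in HDM-treated wild type, 37.2 and 10.04 in PBS-treated transgenic and 10.9 and 9.22 in HDM-treated transgenic libraries. It was low in all 4 HDM libraries and in 1 of the PBS-treated transgenic libraries. With HDM it fell by 1.89 ± 0.38 on the log2 scale in wild type (adjusted p = 0.00818), and the difference in transgenic mice was −1.21 ± 0.56 (adjusted p = 0.187). The wild type call was lost without PBS replicate 1 (adjusted p = 0.11). Without PBS-treated transgenic replicate 1, the higher library, the genotype difference under PBS became −1.53 (adjusted p = 0.0236) and the HDM difference in transgenic mice 0.02 (adjusted p = 0.990).

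C5ar1 is abundant on neutrophils. Of 10 neutrophil markers, led by Cxcr2 and Csf3r, 4 fell with HDM in wild type mice and 1 rose (Cd177), with summed levels of 446 to 480 CPM under PBS and 251 to 255 CPM under HDM. In transgenic mice 8 were tested, 2 of which rose (Cd177 and S100a9), and the sums were 186 and 212 CPM under PBS and 269.9 CPM in both HDM libraries. Under PBS, 5 of 10 were lower in transgenic than in wild type libraries, and under HDM none of 8 passed with edgeR or DESeq2. Of these 8, 2 had an unadjusted p under 0.05 in edgeR, against 2468 of all 15191 genes. The part of neutrophil numbers in the C5ar1 result was not tested. C3ar1 had 0.258 and 0.393 counts per count of C5ar1 in PBS-treated wild type, 6.89 and 4.71 in HDM-treated wild type, 0.413 and 1.32 in PBS-treated transgenic and 2.82 and 2.91 in HDM-treated transgenic libraries. The ratio was above 1 in every HDM library and in 1 PBS library.

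Levels of different genes were compared as CPM per kb of coding length. C4b, Cfb and C2 share 35.2%, 81.8% and 58.0% of their 50-base stretches with C4a or Gm20547. Their places may therefore depend on how such reads were assigned. In PBS-treated wild type libraries the order was C3 (122 ± 2.78, mean ± SD), C1qb (58.5 ± 11.2), C1qc (29.1 ± 6.70), C5ar1 (27.5 ± 8.2), C4b (20.2 ± 2.01), Cfb (14.4 ± 1.76), C3ar1 (6.30 ± 0.0315), C2 (5.69 ± 2.19) and C1qa (5.38 ± 2.26). Neighbours from C1qc to C4b and from C3ar1 to C1qa differed by less than the sum of their SDs. In PBS-treated transgenic libraries the order was C3 (108 ± 8.76), C1qb (44.8 ± 6.99), C5ar1 (22.5 ± 18.3), C1qc (21.1 ± 12.6), C4b (16.0 ± 2.43), Cfb (9.999 ± 3.63), C3ar1 (9.99 ± 1.07), C2 (4.61 ± 1.41) and C1qa (3.18 ± 2.01). Here the only neighbours that differed by more than that sum were C3 from C1qb and C3ar1 from C2.

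In HDM-treated wild type libraries the order was C3 (490 ± 22.8 CPM per kb), C1qb (255 ± 54.2), C1qc (130 ± 8.94), C1qa (43.9 ± 10.4), C4b (32.9 ± 6.01), C3ar1 (31.6 ± 8.24), Cfb (27.2 ± 1.09), C2 (8.12 ± 2.17) and C5ar1 (7.41 ± 0.0404). C1qa had moved from the last place to the fourth and C5ar1 to the last, and the genes from C1qa to Cfb, and C2 and C5ar1, did not differ from their neighbours by more than the SDs. In HDM-treated transgenic libraries the order was C3 (275 ± 52.7), C1qb (192 ± 5.69), C1qc (102 ± 14.4), Cfb (76.1 ± 16.1), C1qa (38.9 ± 2.89), C4b (28.9 ± 11.4), C3ar1 (20.2 ± 2.01), C5ar1 (9.57 ± 1.15) and C2 (3.87 ± 3.52). Cfb stood within the spread of C1qc there, and the genes from C1qa to C3ar1 did not differ from their neighbours beyond it.

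The other complement genes were followed in 6 lists of 44 genes, of which C8b, C9, Fcnb and Mbl2 had at most 3 counts in every library. With HDM, 5 of the 30 tested rose and 1 fell in wild type mice, against 4.44% and 2.3% of all genes tested. In transgenic mice 7 of 30 rose and 3 fell, against 8.43% and 5.35%. The median log2 fold change was 0.14 and 0.31, where that of all genes was 0.02 and 0.03. Between genotypes under PBS, 2 of 29 were lower in transgenic libraries, against 0.375% of all genes. Under HDM none of 30 passed the edgeR test, against 2.44% of all genes. Of these 30, 7 had an unadjusted p under 0.05, against 2468 of all 15191 genes. DESeq2 called 2 of the 30, including C7, against 922 of 15191. The interaction was negative for C7 and for Hc, which encodes C5.

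**Figure D4:**
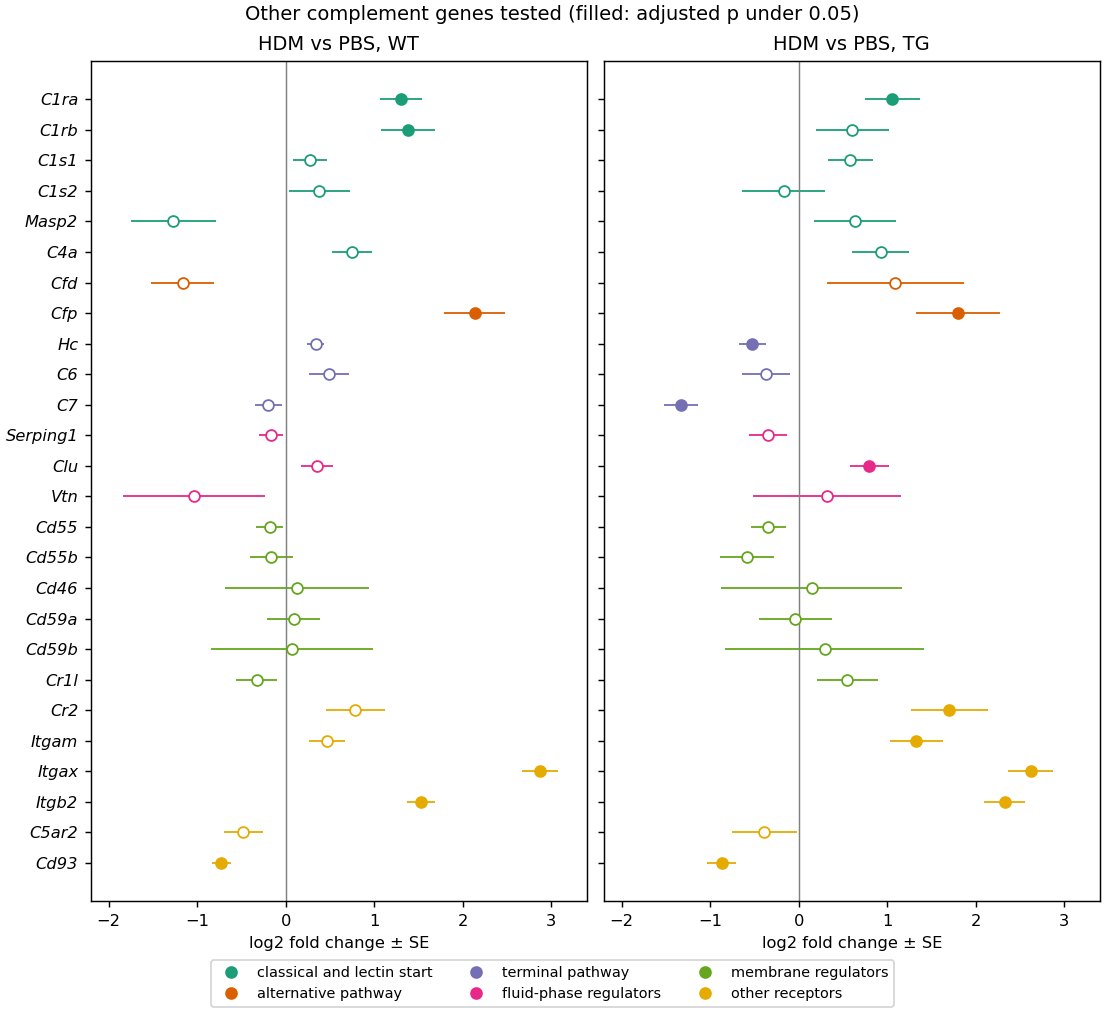
Fitted log2 fold change ± SE with HDM (horizontal axes) of the other complement genes that were tested in both genotypes and had over 3 counts in a library of each group, with 1 gene left out, coloured by list, in wild type (left) and transgenic (right) libraries. Filled points have an adjusted p under 0.05: Itgax and Itgb2 lie far to the right in both plots, and C7 and Hc are filled on the left side of 0 in the right plot only.

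In the classical and lectin list, C1ra, a protease that is part of the C1 complex, was at 25.9 and 28.1 CPM in PBS-treated and 68.8 and 64.3 in HDM-treated wild type libraries, and at 24.1 and 35.2 and then 65.3 and 56.2 in transgenic libraries. It rose in wild type (1.3 ± 0.24, adjusted p = 0.00391) and in transgenic mice (1.06 ± 0.31, adjusted p = 0.041), the last without a call when PBS replicate 1, PBS replicate 2 or HDM replicate 1 was left out (adjusted p = 0.0872 to 0.300). Its near copy C1rb rose in wild type mice (1.38 ± 0.31, adjusted p = 0.0139), a call lost without PBS replicate 2 (adjusted p = 0.0825). Reads could be split between these copies.

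Properdin, encoded by Cfp, stabilises the C3-cleaving enzyme that contains factor B. Cfp was at 8.65 and 8.74 CPM in PBS-treated and 32.0 and 44.5 in HDM-treated wild type libraries (2.13 ± 0.34, adjusted p = 0.00144), and at 9.89 and 5.18 and then 20.1 and 31.6 in transgenic libraries (1.8 ± 0.48, adjusted p = 0.0276). HDM libraries were higher in both genotypes, though the transgenic call was lost with a length offset (adjusted p = 0.0693) and without PBS replicate 1, PBS replicate 2 or HDM replicate 2 (adjusted p = 0.0791 to 0.231). Cfd, the protease adipsin that activates factor B, was at 23.8 and 28.4 CPM in PBS-treated wild type, 11.3 and 12.1 in HDM-treated wild type, 4.39 and 3.38 in PBS-treated transgenic and 3.00 and 13.3 in HDM-treated transgenic libraries. Under PBS it fell by 2.75 ± 0.42 on the log2 scale from wild type to transgenic libraries (adjusted p = 0.00205). Its change with HDM did not pass in wild type (−1.16 ± 0.35, adjusted p = 0.0682) or transgenic mice (1.09 ± 0.77, adjusted p = 0.401), though the wild type change passed under 4 of 13 alternatives, among them DESeq2 (adjusted p = 0.0285). Cfd is a major product of fat cells, and 6 adipocyte markers, led by Lipe and Cidec, summed to 77.1 to 90.4 CPM in PBS-treated wild type and 43.2 to 58.9 in PBS-treated transgenic libraries, with none of the 5 tested past the threshold in edgeR, 3 at an unadjusted p under 0.05 and 2 called by DESeq2 (Adipoq and Pck1). Under HDM they summed to 50.6 to 52.0 and 28.0 to 83.5 CPM. The part of fat in the difference of Cfd was not tested.

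In the terminal pathway, Hc was at 876 and 873 CPM in PBS-treated wild type, 1122 and 1091 in HDM-treated wild type, 1199 and 1140 in PBS-treated transgenic and 775 and 827 in HDM-treated transgenic libraries. The HDM-treated transgenic libraries were the lowest and the PBS-treated transgenic libraries the highest. Hc fell by 0.52 ± 0.15 on the log2 scale with HDM in transgenic mice (adjusted p = 0.0412), and its difference in wild type was 0.34 ± 0.10 (adjusted p = 0.0588), with an interaction of −0.89 ± 0.17 (adjusted p = 0.00876). The wild type difference passed under 7 of 13 alternatives, among them DESeq2 (adjusted p = 0.0247), and the genotype difference under PBS (0.41 ± 0.10, adjusted p = 0.0668) under 5 of 13, also with DESeq2 (adjusted p = 0.00945). Under HDM the genotype difference (−0.43 ± 0.15, adjusted p = 0.178) passed under 2 of 13. C7, a component of the membrane attack complex, was at 214 and 202 CPM in PBS-treated wild type, 161 and 203 in HDM-treated wild type, 280 and 272 in PBS-treated transgenic and 105 and 111 in HDM-treated transgenic libraries. It fell by 1.33 ± 0.19 with HDM in transgenic mice (adjusted p = 0.00104), with an interaction of −1.16 ± 0.24 (adjusted p = 0.0174). The interaction of Hc passed under 13 and that of C7 under 11 of 16 alternatives. With an offset for length, Hc was at −0.18 in transgenic mice (adjusted p = 0.501) and its interaction at −0.64 (adjusted p = 0.0803). Without PBS-treated wild type replicate 1 or 2, the interactions of C7 (adjusted p = 0.0734 and 0.114) and Hc (adjusted p = 0.0654 and 0.0719) were lost, and without PBS-treated transgenic replicate 1 or 2 the changes with HDM of both genes in transgenic mice were lost (C7 adjusted p = 0.0544 and 0.0559, Hc adjusted p = 0.281 and 0.260). The interaction of C7 was also lost without HDM-treated wild type replicate 2 (adjusted p = 0.0892) and without PBS-treated transgenic replicate 1 or 2 (adjusted p = 0.0581 and 0.0632).

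Among regulators, Clu, which encodes the regulator clusterin, rose in transgenic mice (0.80 ± 0.22, adjusted p = 0.0341), a call lost with a length offset (adjusted p = 0.123) and without PBS replicate 1, PBS replicate 2 or HDM replicate 2 (adjusted p = 0.0841 to 0.305). The change of Clu in wild type mice had the same direction and did not pass (0.36 ± 0.18, adjusted p = 0.285), nor did its interaction (0.42, adjusted p = 0.531). None of the 6 membrane regulators, led by Cd55 and Cr1l, passed in any comparison with edgeR or DESeq2. Of these, 1 had an unadjusted p under 0.05 in each genotype comparison and 0 in the others.

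Both integrin chains of complement receptor 4 rose with HDM, and the alpha chain of receptor 3 passed in transgenic mice and not in wild type. None of the 6 genes tested in the list of other receptors, which holds these chains and Cr2, passed the interaction with edgeR or DESeq2. Itgax, the alpha chain of receptor 4, was at 34.7 and 24.3 CPM in PBS-treated and 223 and 209 in HDM-treated wild type libraries (2.88 ± 0.20, adjusted p = 5.5e-07), and at 22.1 and 28.4 and then 149 and 158 in transgenic libraries (2.62 ± 0.25, adjusted p = 5.8e-05). Itgb2, the beta chain of both, rose by 1.53 ± 0.16 in wild type (adjusted p = 2.8e-05) and by 2.33 ± 0.23 in transgenic mice (adjusted p = 7.1e-05). Itgb2 was lower in transgenic libraries under PBS (35.0 and 39.4 against 84.2 and 72.8 CPM, −1.09 ± 0.22, adjusted p = 0.0245), a call lost without wild type replicate 1 (adjusted p = 0.306) and with the replicate block (adjusted p = 0.116). Both genes are expressed by many leukocytes. Itgam, the alpha chain of receptor 3, was at 54.0 and 55.0 CPM in PBS-treated and 80.01 and 70.7 in HDM-treated wild type libraries (0.47 ± 0.20, adjusted p = 0.221), and at 32.8 and 25.2 and then 79.6 and 63.8 in transgenic libraries. Under PBS, DESeq2 called Itgam between genotypes and edgeR did not. It rose in transgenic mice (1.33 ± 0.29, adjusted p = 0.0113), as did Cr2 (1.70 ± 0.44, adjusted p = 0.0238), and without PBS replicate 1 or 2 both calls were lost (Itgam adjusted p = 0.092 and 0.187, Cr2 adjusted p = 0.188 and 0.0701). The change of Cr2 in wild type mice had the same direction and did not pass (0.79 ± 0.34, adjusted p = 0.209). Cr2 encodes a receptor of C3 fragments on B cells, and of 6 B cell markers, led by Cd79a and Ms4a1, 6 rose in wild type and 5 in transgenic mice. Their sums were 134 and 148 CPM under PBS and 447 and 400.3 CPM under HDM in wild type, and 78.0 and 69.9 CPM and then 336 and 518 CPM in transgenic libraries. Their part in the change of Cr2 was not tested.

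Cd93, a surface protein of endothelium once proposed as a receptor of C1q, fell by 0.73 ± 0.11 on the log2 scale with HDM in wild type (adjusted p = 0.000715) and by 0.87 ± 0.17 in transgenic mice (adjusted p = 0.00503). The transgenic call was lost with a length offset (adjusted p = 0.100) and without PBS replicate 1 or 2 (adjusted p = 0.0734 and 0.154). Of 6 endothelial markers, led by Cdh5 and Pecam1, 2 fell in wild type and 4 in transgenic mice. Their sums were 1823 and 1871 CPM under PBS and 1420 and 1421 CPM under HDM in wild type, and 2080 and 2221 CPM and then 866 and 1199 CPM in transgenic libraries. Their part in the change of Cd93 was not tested.

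Other cells of the lung that can express C3 did not move as 1 group. Of 8 alveolar type 2 markers, led by Sftpc and Slc34a2, 2 rose and 1 fell with HDM in wild type, and 1 rose and 2 fell in transgenic mice, with sums of 14730 to 17800 CPM in wild type and 15150 to 25070 in transgenic libraries. Of 5 club cell markers, led by Scgb1a1 and Cyp2f2, 4 fell in wild type, and 2 rose and 2 fell in transgenic mice. Their sums were 29510 and 36890 CPM under PBS and 10900 and 12840 CPM under HDM in wild type, and 35590 and 53970 CPM and then 10250 and 14030 CPM in transgenic libraries. Of 8 fibroblast markers, led by Col3a1 and Col1a2, 1 rose and 1 fell in wild type, and 1 rose and 2 fell in transgenic mice, with sums of 950 to 1246 CPM over all libraries. Between genotypes under HDM, Sftpd, Scgb3a1 and Scgb3a2 were higher and Col1a1 lower in transgenic libraries. Their part in the levels of C3 was not tested.

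The genes whose pattern over the 8 libraries was most like that of each of the 9 were found among 9545 genes with a mean of at least 10 CPM, by the root mean square difference of centred log2 CPM. For C3 they were Tlr8 (0.113), Chil1 (0.150) and Lgals3bp (0.159), and for C1qb Ifi211 (0.170), Mki67 (0.187) and Slamf7 (0.217). For C1qa they were Ctsk (0.196), Lax1 (0.395) and Irf7 (0.408), for C1qc Oas1g (0.229), Il4i1b (0.246) and Il4i1 (0.287), and for C3ar1 Ifit1 (0.205), Oasl2 (0.277) and Ear2 (0.280). C4b was most like Nmd3 (0.120), C4a (0.134) and Kif21b (0.141), and C2 like Gigyf1 (0.250), Vps8 (0.263) and Isca2 (0.296). The genes nearest to Cfb were Gmfg (0.250), S100a4 (0.271) and Cstb (0.273), which have transcripts of 657, 498 and 603 bases against 2737 bases for Cfb, and those nearest to C5ar1 were Cxcl14 (0.417), Acoxl (0.418) and Kcnk2 (0.450). Among the 9 themselves the nearest pairs were C3 with C1qb (0.354) and C3 with C3ar1 (0.384), and the farthest was C1qa with C5ar1 (2.49).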

How the data were processed

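Each of the 4 groups gave 1 pool of total lung RNA from 4 mice, which was made into 2 libraries. The authors amplified the RNA with a SPIA kit from 10 ng, read single ends of 50 cycles and used TopHat for alignment to mm10. Reads within coding sequence were then summed per gene with ShortRead and R code of their own. The submitters' processing notes also name bcl2fastq, CASAVA 1.8 and DESeq. The version of TopHat and the gene annotation are not given in the sources used here. By the methods of the paper 6 indexed libraries were clustered together, and how the 8 libraries were divided is not given either. The values the authors deposited are raw read counts for 23469 genes, of which 23372 matched a RefSeq symbol by Entrez identifier. Each library was assigned by its title, and 0 columns of values were left unmapped. The replicates were libraries of 1 pool. Per gene, the counts of such pairs differed by more than counting noise (mean chi-square 13.5 to 29.5), and 3 counts correspond to 0.232 to 0.450 CPM per library.

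Counts were scaled with trimmed mean of M values factors and tested with the edgeR 4.0.16 quasi-likelihood test in R 4.3.3, separately on the 4 libraries of each comparison and on all 8 for the interaction of genotype and treatment. Genes were kept by filterByExpr with a count minimum of 10, and Benjamini-Hochberg adjustment ran over every gene kept, with a threshold of 0.05. Each SE was the log2 fold change divided by the square root of its F statistic. The fits were tested on simulated data. The replicate numbers marked no shared animals, and deviations from the group means correlated at −0.02 to 0.03 between libraries of the same number, so no pairing was used. Alternatives were RLE size factors, DESeq2 1.42.0, no filter on low counts, the replicate block, library sizes that leave out Rn45S and haemoglobin, offsets for transcript length or GC content, all 8 libraries in 1 fit, each library left out in turn and, chosen after seeing the data, C4b and C4a summed. The alternatives for complement genes outside the 9 were also added after seeing the data.

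Named were the 9 genes, the complement genes of 6 lists that passed a test, with Cfd, Cfp and Hc in every comparison, at most 2 leading genes of each marker list and 3 genes of like pattern per gene. Some results for single genes of the lists are not reported here. Adgre1 and the other genes named among the markers, such as those that moved against their list, were chosen after their values were seen. The 9 genes, the 21 lists and the ratios were chosen with earlier results of these data known. Sequences were those of RefSeq on GRCm38.p6, which held an entry for 5 of the 9 genes.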

Additional observations from a re-analysis of the deposited data

Results flagged for a closer look

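The genotype difference in Cfb was not the same under HDM and PBS by the test of the interaction (2.01 on the log2 scale, adjusted p = 0.00588, edgeR quasi-likelihood test). Transgenic libraries were higher than wild type libraries under HDM and the means were in the opposite order under PBS.

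The interaction was also past the threshold in the opposite direction for C7 (−1.16, adjusted p = 0.0174) and Hc (−0.89, adjusted p = 0.00876), for which the transgenic libraries were higher than the wild type libraries under PBS and lower under HDM in every library. Of all genes tested, 40.3% and 48.2% did not overlap between genotypes under PBS and HDM. With edgeR the genotype differences did not pass under PBS or HDM for C7 (0.40, adjusted p = 0.259, and −0.71, adjusted p = 0.109). Nor did those of Hc (0.41, adjusted p = 0.0668, and −0.43, adjusted p = 0.178). In all of these interactions, treatment and the sex of the pooled mice cannot be told apart.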

How the results depend on the processing

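Of the log2 fold changes of the 9 genes, 382 of 401 recomputed under another setting and 183 of 216 with a library left out kept their direction and their side of the threshold, and calls were lost in 3 and 10. For the named complement genes outside the 9, each in the comparisons in which it was named, 277 of 310 and 118 of 160 did so, and calls were lost in 9 and 28. Under other settings the number of all genes called between genotypes under PBS was 223 with DESeq2, 306 with no filter on low counts, 46 with the replicate block and 191 with the length offset and replicate block, in place of 98. Between genotypes under HDM it was 922, 1055 and 625 with the first 3 of these, 169 with the length offset and 771 with all 8 libraries in the fit, in place of 370, and 1 of the 9 genes was called with the length offset. Higher calls made up 75.4% of these 370, 63.3% with the length offset, 64.0% with DESeq2 and 57.1% with all 8 libraries. With HDM in wild type mice, 1588 genes were called with no filter, in place of 1020. For the interaction, 680 genes were called with DESeq2 and 675 with no filter, in place of 279, and 2 of the 9 genes with DESeq2, with no filter and with the replicate block. Because the replicate numbers share only a number, a call that changed under the replicate block is not read as a weaker effect. With the length offset, without and with the replicate block, the genotype difference of C4b under HDM turned to 0.065 and 0.014, and the interaction of C1qc to −0.25 and −0.23. None of these reversed values passed the threshold, and the cause was not tested.

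With a library left out, the genes called ranged from 75 to 432 between genotypes under PBS, 6 to 1595 under HDM, 652 to 1661 with HDM in wild type, 277 to 2676 with HDM in transgenic mice and 138 to 723 for the interaction. The called genes of the 9 ranged from 0 to 1 and 0 to 3 between genotypes under PBS and HDM, and from 1 to 2 for the interaction. Reversed values, none of them past the threshold, occurred between genotypes under PBS for C1qc (−1.26 to 0.037), C2 (−0.66 to 0.14), C5ar1 (−1.53 to 0.37) and Cfp (−0.75 to 0.19), and under HDM for C1qa (−0.38 to 0.13), C4b (−0.61 to 0.19) and Cfd (−1.91 to 0.21). They also occurred with HDM in transgenic mice for C2 (−1.72 to 0.46), C5ar1 (−1.87 to 0.017) and Cfd (−0.36 to 1.77), and in the interaction for C1qb (−0.23 to 0.21), C1qc (−0.38 to 0.91), C4b (−0.33 to 0.50) and Cfp (−0.75 to 0.19). Such fits leave 1 group with a lone library, which is assumed to vary like the others. With 2 libraries of 1 pool per group, differences between mice were not measured, and the lowest counts of C1qa and C2 were 13 and 21.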
